A study of Eleusine coracana with 4 samples.

Results

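The loci described here lie in 3 runs of neighbouring identifiers in a read-count table of finger millet (Eleusine coracana) leaves. They are all features numbered from LOC_Os01g57900 to LOC_Os01g58040, from LOC_Os04g16700 to LOC_Os04g16899 and from LOC_Os10g38220 to LOC_Os10g38300. The rule uses only the identifier, and it takes 89 of the 55986 features, 25 in the chromosome 1 run, 57 in the chromosome 4 run and 7 in the chromosome 10 run. Chromosome numbers are the digits in the identifiers, which have the form of rice locus names, and the runs need not lie together in the finger millet genome. The deposited tables give a length for each locus but no gene name, position or sequence, so the description of these runs as plastid-like, and the leaf as the tissue, were not checked against genes of known function.

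Top leaves of young plants of the genotypes CO12 and Trichy 1 were profiled by RNA sequencing after ribosomal RNA depletion. Control plants of either genotype were kept well watered, and salt-treated plants were given NaCl at 300 mM from day 20, at the 4-leaf stage. Each of the 4 combinations has 1 library, and the labels do not say how many plants gave its RNA. No difference below therefore has a replicate check or a p-value, and every interval covers counting error only. The libraries held 6272817 total gene reads (control) and 1831353 (salt) in CO12, and 3347497 (control) and 2406821 (salt) in Trichy 1.

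Plastids keep a small genome of their own, which encodes ribosomal and transfer RNAs, core proteins of the photosystems, subunits of the ATP synthase and of an NADH dehydrogenase-like complex, and the large subunit of Rubisco. Copies of plastid DNA are common in plant nuclear chromosomes, and rice chromosome 10 is known for long insertions of this kind. A read from a plastid transcript can match the plastid genome and several nuclear copies equally well. Plastid RNAs mostly lack long poly(A) tails, so they enter libraries made by ribosomal RNA depletion. This is background: none of it assigns a gene or a function to a locus named here.

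The 3 runs took a large part of every library, almost all of it through 3 loci. Together the 89 loci held 39.8% (control) and 34.6% (salt) of the CO12 reads, and 35.1% (control) and 33.4% (salt) of those of Trichy 1. The widest 95% Wilson interval, that of CO12 salt, ran from 34.5% to 34.7%. Without LOC_Os01g57968, LOC_Os04g16722 and LOC_Os04g16770, the other 86 loci held 0.728% (0.721% to 0.734%), 0.908% (0.895% to 0.922%), 0.923% (0.913% to 0.933%) and 0.808% (0.797% to 0.819%) in the same order. CO12 control thus had the highest share with these 3 loci and the lowest without them. In bulk leaf RNA, fewer cells of a type and less RNA per cell cannot be told apart.

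LOC_Os01g57968 (1766 bp) had the highest level of the runs per length, with a mean RPKM (reads per kilobase of locus and 1000000 library reads) of 145883 over the 4 libraries. In reads per 1000000 library reads (RPM), it had 279733 (control) and 262634 (salt) in CO12, and 240201 (control) and 247949 (salt) in Trichy 1. The libraries were within a narrow range, and salt and control differed by a log2 ratio of -0.09 in CO12 and 0.05 in Trichy 1. LOC_Os04g16722 (4203 bp) had 59653 RPM (control) and 55030 (salt) in CO12, and 63035 (control) and 62710 (salt) in Trichy 1. Its level per length was lower, with a mean RPKM of 14301.

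LOC_Os04g16770 (1168 bp) behaved differently from these. Its level was 51269 RPM (control) and 19255 (salt) in CO12, and 38191 (control) and 15391 (salt) in Trichy 1. Both salt libraries were below both control libraries, 2.66-fold lower in CO12 (95% interval 2.63 to 2.69) and 2.48-fold lower in Trichy 1 (2.45 to 2.51). Relative to LOC_Os04g16722 in the same run, it had 0.859 reads per read (control) and 0.350 (salt) in CO12, and 0.606 (control) and 0.245 (salt) in Trichy 1. This ratio within a library does not depend on how libraries are scaled.

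LOC_Os01g57960 (2641 bp) was the fourth in level, and its reads were almost all unique, 99.9% over the 4 libraries. It had 5107 RPM (control) and 6214 (salt) in CO12, and 5205 (control) and 4934 (salt) in Trichy 1. CO12 salt stood highest, 1.22-fold above CO12 control (1.19 to 1.24), and the other libraries lay close together. Without it and the 3 dominating loci, the remaining 85 loci summed to 2169.5, 2868, 4022 and 3144 RPM in the same order of libraries.

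Of the 89 loci, 48 had at least 20 total gene reads in at least 1 library, 32 had between 1 and 19 reads at most, and 9 had no read in any library. Of the 48, 37 reached 20 reads in all 4 libraries. LOC_Os01g57958, LOC_Os04g16712 and LOC_Os04g16804 reached it in 1 library only, so they had to be high there to be counted. Another 6 reached it in 2 libraries, among them LOC_Os04g16886 (CO12 salt and Trichy 1 control) and LOC_Os04g16738 (the salt libraries). The 41 loci below 20 reads summed to between 84 and 159 reads in a library. The edges of the runs are not sharp in every case: LOC_Os01g58049, just outside the chromosome 1 run, had 324, 153, 356 and 203 reads in the order above, and LOC_Os10g38216, just before the chromosome 10 run, had 520, 230, 315 and 231.

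Below LOC_Os01g57960, the 9 loci with the highest mean level were LOC_Os04g16775, LOC_Os04g16740, LOC_Os10g38229, LOC_Os01g57962, LOC_Os01g58020, LOC_Os10g38234, LOC_Os04g16874, LOC_Os04g16872 and LOC_Os01g58039. LOC_Os01g57962 had 121 RPM (control) and 244 (salt) in CO12, and 328 (control) and 223 (salt) in Trichy 1. LOC_Os01g58020 (618 bp) had 138, 202, 278 and 179.9 RPM in the same order, and LOC_Os10g38234 (2205 bp) had 117, 121, 309 and 216. CO12 control was the lowest and Trichy 1 control the highest library for all 3.

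LOC_Os04g16872 (1080 bp), with 113, 164, 224 and 152 RPM, had the same order at its ends, as did LOC_Os04g16874 (1596 bp), with 118, 132, 209 and 203. LOC_Os01g58039 (876 bp), 91.8% of whose reads were unique, differed: it had 169 RPM (control) and 132 (salt) in CO12, and 145 (control) and 155 (salt) in Trichy 1, with CO12 control the highest.

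**Figure D1:**
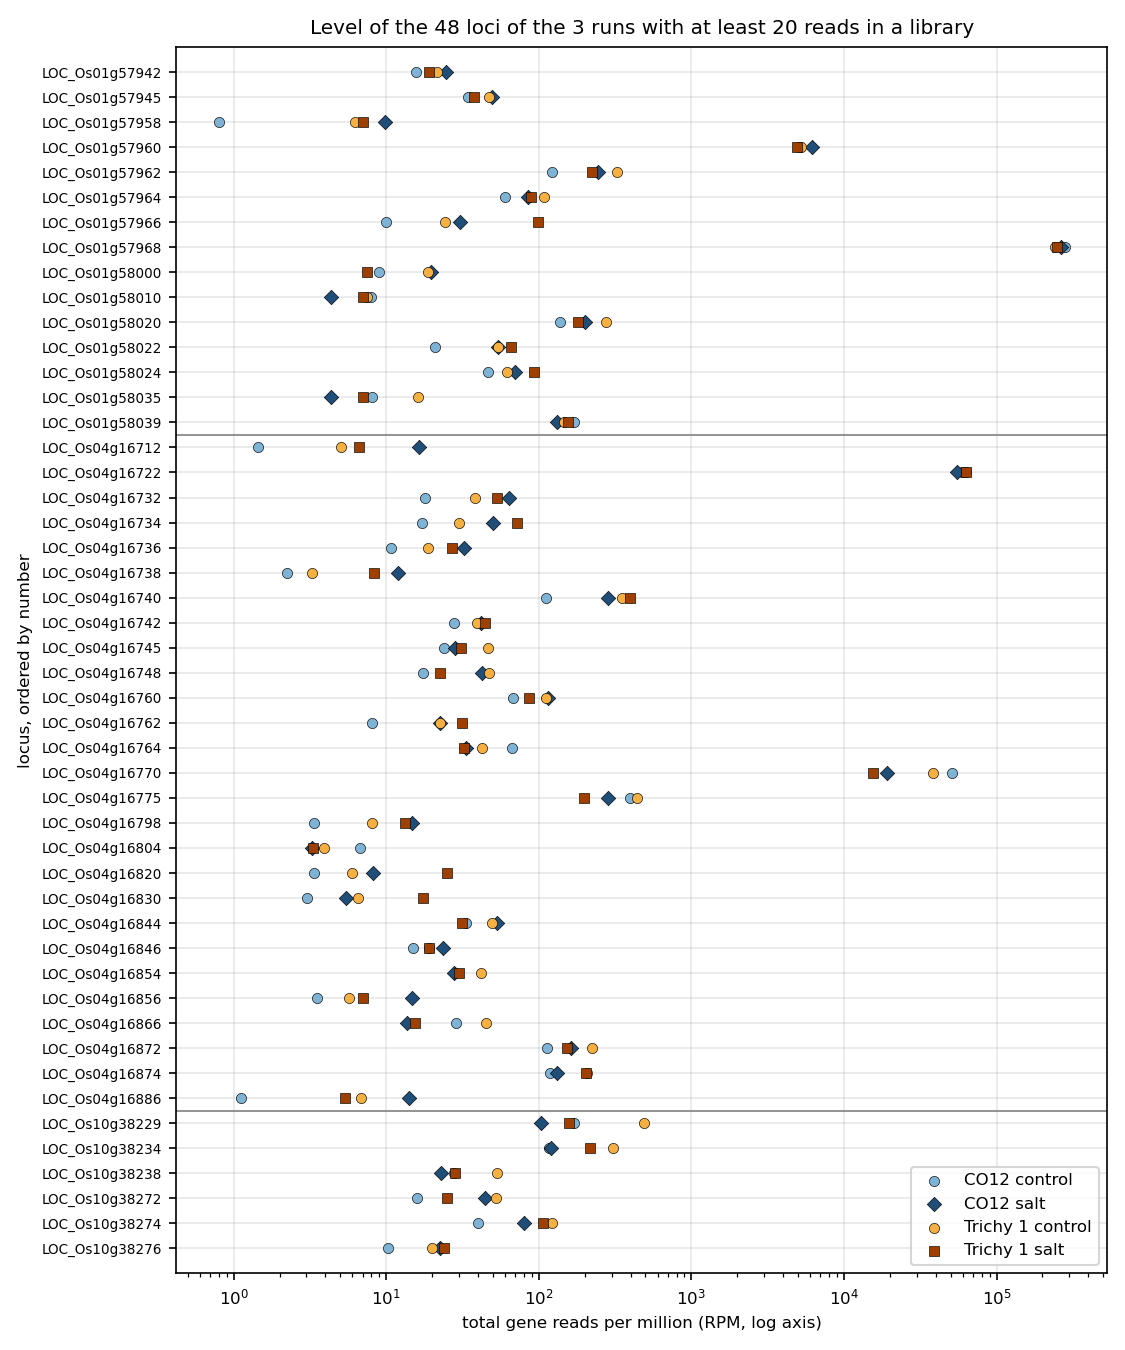
Level of the 48 loci of the 3 runs with at least 20 reads in a library, in RPM on a log axis, 1 point per library and locus, with loci ordered by number and grey lines between the runs. LOC_Os01g57968, LOC_Os04g16722 and LOC_Os04g16770 lie far to the right, and CO12 control (light blue circles) is the lowest point for 32 of the 48 loci.

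Most of these loci had few reads that the tables count as unique, taken here as reads that matched 1 place only. Over the 4 libraries, the median unique share was 0.12% for the 48 loci and 98.6% for the 1018 other features with at least 20 reads in a library. No unique read at all was counted for 23 of the 48 loci, against 54 of the other 1018 features (5.30%). Another 6 loci had some unique reads but under 5%, 10 had between 5% and 50%, and 9 had more than 50%. In reads, the picture was different, since LOC_Os01g57968 and LOC_Os04g16722 were largely unique: of the reads of the runs, 78.4% (control) and 84.4% (salt) were unique in CO12, and 79.3% (control) and 83.4% (salt) in Trichy 1.

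Outside the 3 dominating loci the runs differed from each other. The other 24 loci of the chromosome 1 run had 92.5%, 89.7%, 86.1% and 87.4% unique reads, mainly through LOC_Os01g57960. The other 55 loci of the chromosome 4 run had 9.13%, 8.48%, 8.08% and 11.8%, and the chromosome 10 run had 3.46%, 7.67%, 4.15% and 9.35%.

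LOC_Os04g16770 had few unique reads for its level. In CO12 they were 19535 of 321600 (control) and 1966 of 35263 (salt), and in Trichy 1 they were 8203 of 127845 (control) and 2137 of 37043 (salt). Its unique reads were also lower under salt, 3.01-fold in CO12 (2.88 to 3.16) and 2.83-fold in Trichy 1 (2.69 to 2.96), scaled to unique reads. In CO12 control, no other feature had as many non-unique reads as its 302065. LOC_Os01g57968 had 191300 non-unique reads there and LOC_Os04g16722 had 35298, while the next feature, LOC_Os12g19580, had 13958. Together the 3 dominating loci left 122084 non-unique reads for all other features of that library. The order of the loci was not the same in every library. With salt, LOC_Os01g57968 had more non-unique reads than LOC_Os04g16770, 51624 against 33297 in CO12 and 76412 against 34906 in Trichy 1. In Trichy 1 control it had 91050 against 119642. Of the non-unique reads of a whole library, the 89 loci held 83.0% (control) and 78.0% (salt) in CO12, and 78.5% (control) and 78.0% (salt) in Trichy 1.

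**Figure D2:**
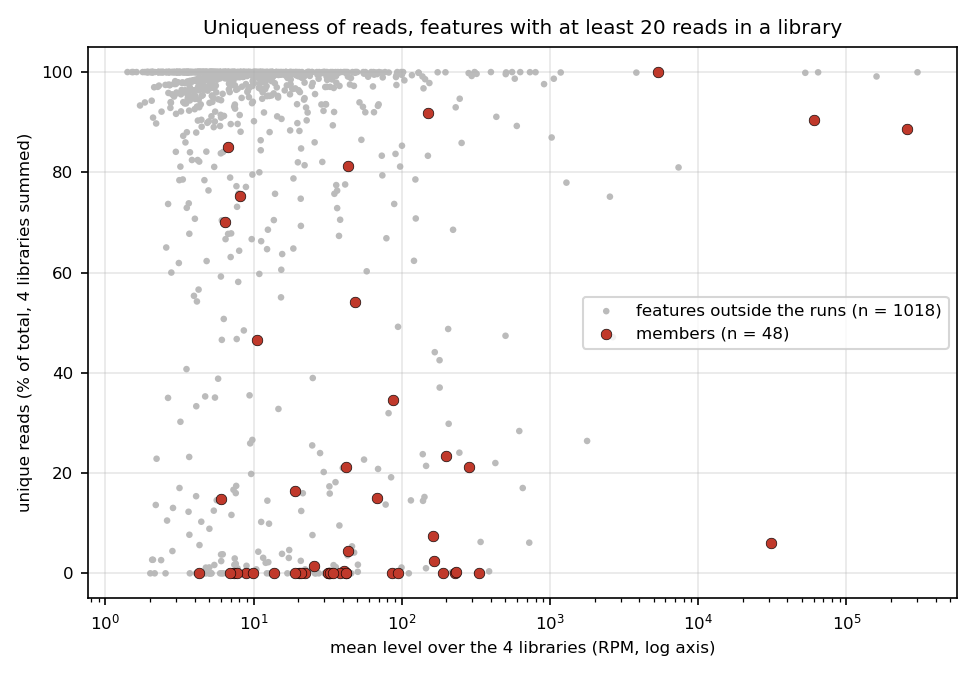
Share of unique reads (%, the 4 libraries summed) against mean level (RPM, log axis) for all features with at least 20 reads in a library, with the loci of the runs in red and the 1018 other features in grey. Of the red points, 23 lie at 0%, LOC_Os04g16770 lies near the bottom at the far right, and most grey points lie near 100%.

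Read sharing was followed through loci of equal length, since the tables give no property of a locus besides its length and its counts. Features with at least 20 reads in a library, under 5% unique reads and the same length were put together, a rule chosen after the counts were seen. This gave 13 sets that held 23 loci of the runs and 25 features outside them. Of the outside partners, 9 were numbered LOC_Os10g21, and the others carry numbers of chromosomes 2, 5, 7, 8, 9 and 10.

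In 4 of the 13 sets, the reads were split evenly: the exact (Clopper-Pearson) interval of every locus's share included the even share in every library. LOC_Os04g16775 (249 bp) is the clearest case. It had 2468 reads (control) and 521 (salt) in CO12, and 1483 (control) and 479 (salt) in Trichy 1. Its partners LOC_Os07g25022, LOC_Os08g15264 and LOC_Os09g24408 had 2467, 2482 and 2528 reads in CO12 control and between 456 and 492 in Trichy 1 salt. LOC_Os04g16775 had no unique read, and in every library the counts of the 4 loci lay within counting error of an even split.

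LOC_Os01g57942 and LOC_Os04g16846, both of 699 bp, are a second such set with LOC_Os10g21324, with 99, 94 and 92 reads in CO12 control and 46, 46 and 47 in Trichy 1 salt. The 303 bp set joins LOC_Os01g58035 to LOC_Os02g24636 and LOC_Os10g41692. It had 27 to 156 reads in a library, so its intervals are wide and could include the even share of an uneven split. The 312 bp set joins LOC_Os04g16745 and LOC_Os10g38238 to LOC_Os10g21244. Values of loci in such a set are not independent of each other if they share reads, and equal length alone does not show equal sequence, which was not tested.

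In the other 9 sets, the interval of at least 1 locus left out the even share in at least 1 library. A set has 8 to 24 such intervals, so counting error alone can give a miss. The 471 bp, 478 bp and 750 bp sets included the even share in 23 of 24, 11 of 12 and 18 of 20 intervals. In the 1380 bp set, LOC_Os04g16748 held 18.5% (control) and 17.6% (salt) of the set's reads in CO12, and 19.8% and 8.12% in Trichy 1. LOC_Os10g38272 held 16.8%, 18.3%, 22.1% and 9.02%. The outside partner LOC_Os10g21238 held 64.6%, 64.1%, 58.1% and 82.9%, so the 2 loci of the runs had a lower part in Trichy 1 salt than in the other libraries.

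LOC_Os01g57962 (2205 bp) held 26.8% (control) and 51.6% (salt) of its set in CO12, and 36.0% (control) and 35.2% (salt) in Trichy 1. Its partner in the runs, LOC_Os10g38234, held 25.8%, 25.5%, 33.9% and 34.2%, and the outside partner LOC_Os10g21248 had 47.4% in CO12 control and 22.9% in CO12 salt. CO12 salt was thus the library where LOC_Os01g57962 stood apart.

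LOC_Os01g57966 (1979 bp) had 63, 56, 81 and 237 reads, while LOC_Os04g16736 of the same length had 67, 59, 63 and 65. The interval of LOC_Os01g57966 included the even share in the first 3 libraries, and in Trichy 1 salt it held 59.4% of the set (54.4% to 64.3%). In the 2253 bp set, LOC_Os01g57964 and LOC_Os04g16760 had 378 and 424 reads in the CO12 control library, 155 and 210 with salt, 361 and 373 in that of Trichy 1, and 213 and 207 with salt. LOC_Os10g38229, of the same length, had 1070, 190, 1640 and 381, and in Trichy 1 control it held 44.0% of the set.

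**Figure D3:**
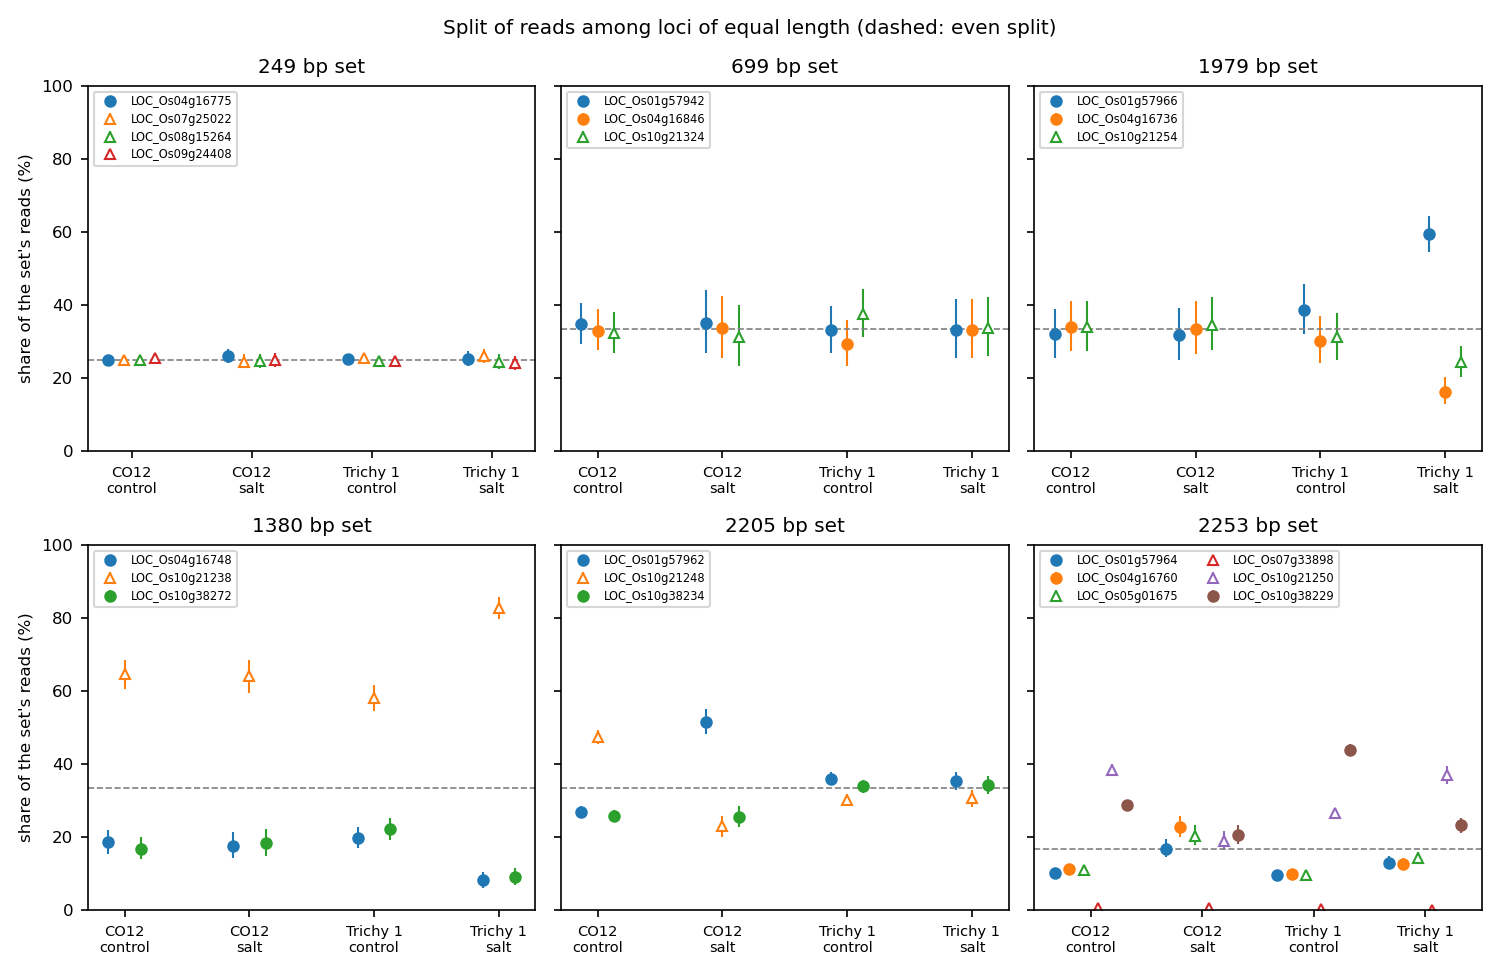
Share of a set's reads (%) held by each locus of 6 equal-length sets in the 4 libraries, with 95% exact intervals, filled circles for loci of the runs, open triangles for features outside them and a dashed line at the even split. The 249 bp and 699 bp sets lie on the line, and the other sets leave it, as LOC_Os01g57966 does in Trichy 1 salt (59.4%) and LOC_Os10g21238 in every library.

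The first comparison asked how the loci differed with salt in CO12. Their counts in RPM were mostly higher under salt: 20 of the 48 loci reached 2-fold higher values and 2 reached 2-fold lower ones. Over all 1066 features with at least 20 reads in a library, 13.3% were 2-fold higher and 18.2% 2-fold lower. The median log2 ratio was 0.64 for the 48 loci and -0.11 for all features, a distance of 0.75 on the log2 scale. Relative to the median of all features, 20 loci were 2-fold higher and 1 lower (15.9% and 14.9% of all features). Against scaling to library totals, TMM (trimmed mean of M-values) factors over the 1066 features moved the median of all features by 0.08. They gave 20 loci higher and 1 lower (15.3% and 16.2% of all features). Factors taken from the whole table moved that median by -0.75 with TMM and by -0.52 with median-of-ratios. The latter uses the 4929 features with reads in every library. With TMM over the whole table, 7 loci were 2-fold higher and 10 lower, where 4.503% and 43.8% of the 1066 features were. With median-of-ratios over the whole table, 10 were higher and 7 lower, against 6.38% and 35.4%. The majority of calls among the loci thus turned to lower with this TMM scaling, while their shares stayed above all features on the higher side and below them on the lower side.

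LOC_Os04g16886 (471 bp) had the highest ratio, with 1.12 RPM (control) and 14.2 (salt) in CO12, and 6.87 (control) and 5.40 (salt) in Trichy 1. CO12 control stood below the other libraries, and salt was 12.7-fold higher in CO12 (95% interval 5.38 to 34.7), from 26 against 7 reads. LOC_Os01g57958 (638 bp) had 0.797, 9.83, 6.27 and 7.06 RPM in the same order, 12.3-fold higher under salt in CO12 (4.41 to 42.5). LOC_Os04g16712 (471 bp) had 1.43, 16.4, 5.08 and 6.65 RPM, 11.4-fold higher (5.28 to 27.3). These values rest on 5 to 30 reads. None of these loci reached 20 reads in CO12 control, so each was counted only through libraries with more reads. The floor thus favours a high ratio for them.

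LOC_Os04g16712, LOC_Os04g16856 and LOC_Os04g16886 all belong to the 471 bp set, which also has partners on chromosomes 2, 8 and 10. Summed over its 6 loci, the set had 79 reads (control) and 144 (salt) in CO12, and 122 (control) and 95 (salt) in Trichy 1. That is 6.24-fold higher under salt in CO12 (4.71 to 8.32), with 12.6 against 78.6 RPM. CO12 control was the lowest library for the sum as well as for each of the 3 loci of the runs.

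A stretch of neighbours in the chromosome 4 run was higher together, from LOC_Os04g16732 to LOC_Os04g16740, picked out after the values were seen. All 5 of its loci with at least 20 reads had CO12 log2 ratios between 1.34 and 2.36. LOC_Os04g16740 (1651 bp) had 111 RPM (control) and 282 (salt) in CO12, and 349.5 (control) and 395 (salt) in Trichy 1. CO12 control was well below the rest, and salt was 2.54-fold higher in CO12 (2.26 to 2.85). Its unique reads alone, 143 and 110, gave the same 2.54-fold (1.961 to 3.28). LOC_Os04g16732 (1192 bp) had 17.9, 63.9, 37.9 and 53.2 RPM, 3.58-fold higher under salt in CO12 (2.74 to 4.68). LOC_Os04g16738 (783 bp), 70.1% of whose reads were unique over the 4 libraries, was 5.38-fold higher (2.63 to 11.4), from 22 against 14 reads. It reached 20 reads in the salt libraries only, which favours a high ratio.

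Other loci whose interval lay wholly above 2-fold in CO12 were LOC_Os01g57966, LOC_Os04g16734, LOC_Os04g16736, LOC_Os04g16798, LOC_Os04g16856 and LOC_Os10g38272, which makes 12 with those named above (5.25% of all features). With total reads, LOC_Os04g16770 was the only one of the 48 whose interval lay wholly beyond 2-fold on the lower side (1.97% of all features). LOC_Os04g16866 (729 bp) was the other locus at least 2-fold lower, with 28.7 RPM (control) and 13.7 (salt) in CO12, and 45.1 (control) and 15.4 (salt) in Trichy 1. Its salt libraries were below its control libraries in both genotypes. The third lowest log2 ratio, -0.9997 and just short of 2-fold, was that of LOC_Os04g16804, from 6 reads with salt and 42 without. Summed, its 750 bp set was 2.52-fold lower (1.71 to 3.84), from 29 reads with salt and 250 without. LOC_Os04g16764 was also near 2-fold lower in CO12, 1.99-fold with total reads (1.52 to 2.65). With unique reads alone, 39 with salt and 374 without, it was 2.91-fold lower (2.09 to 4.15).

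**Figure D4:**
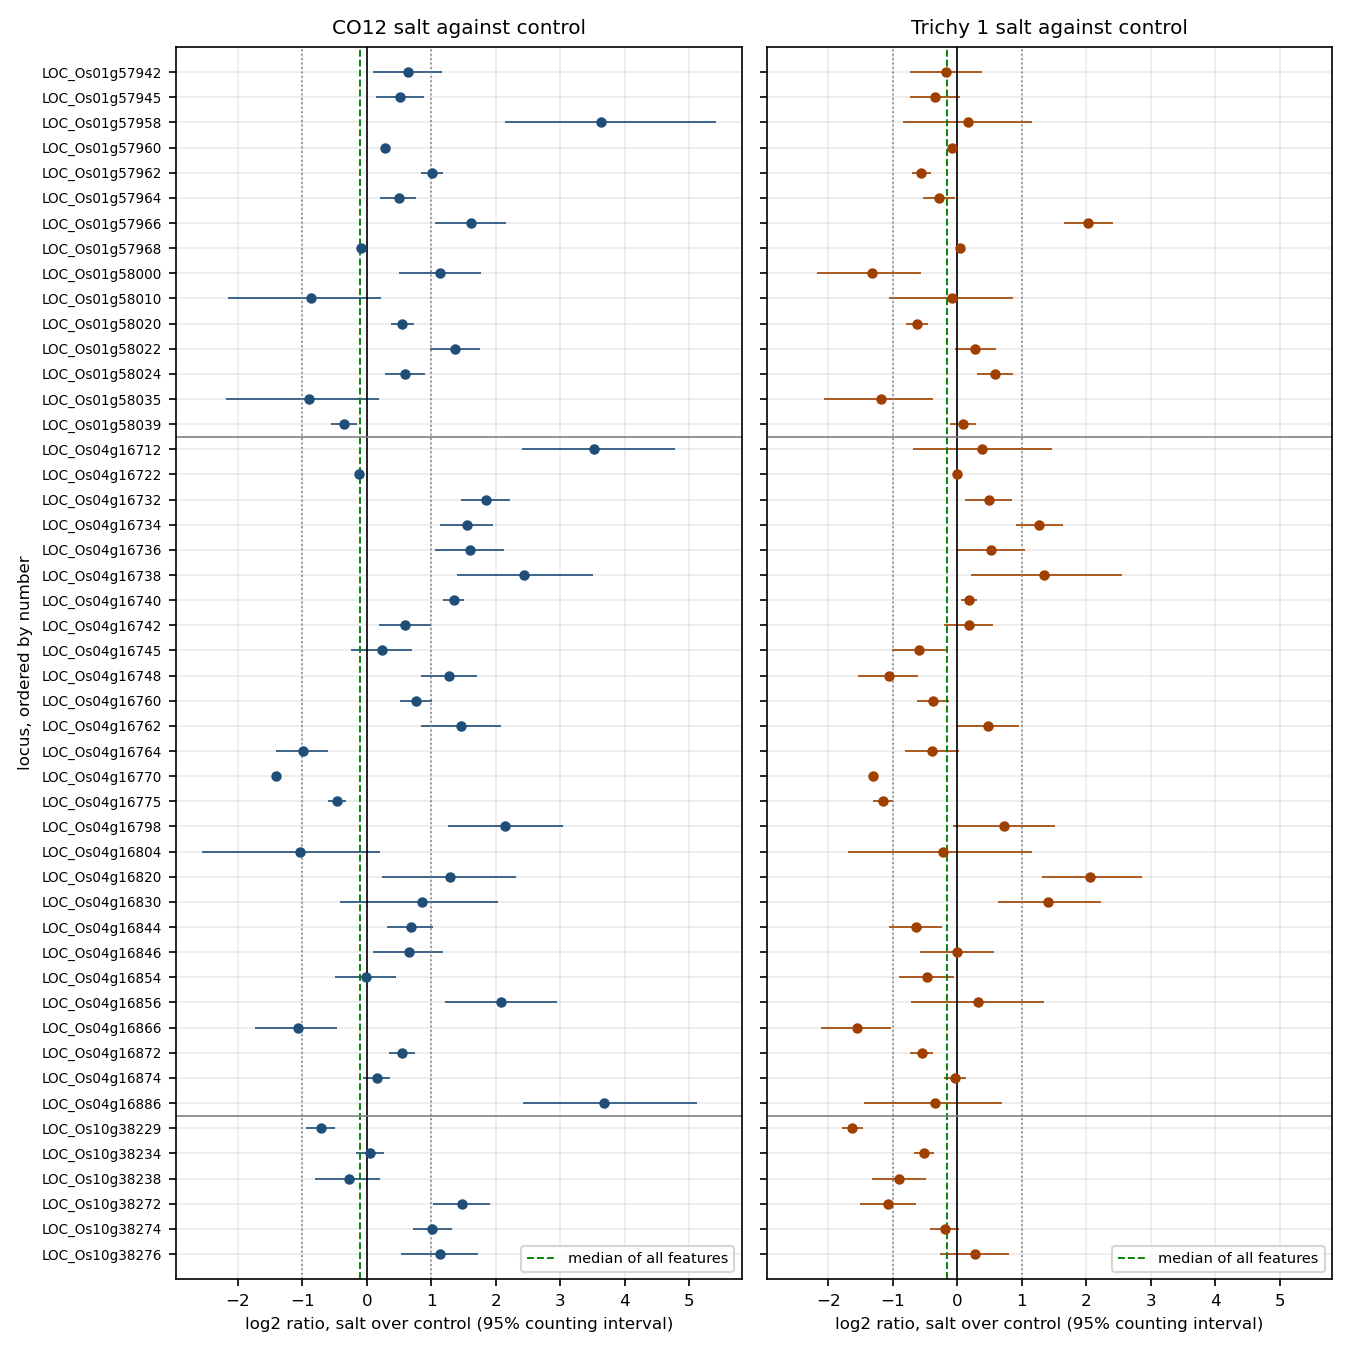
Log2 ratio of salt over control for the 48 loci in CO12 (left) and Trichy 1 (right), with 95% counting intervals, dotted lines at 2-fold and a green dashed line at the median of all features. In CO12, 20 loci lie at or beyond 2-fold on the higher side and LOC_Os04g16770 far to the left, and in Trichy 1 the points lie on either side of the line.

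In Trichy 1 the same comparison gave no such excess. With salt, 5 of the 48 loci reached 2-fold higher and 8 reached 2-fold lower values, against 12.3% and 17.1% of all features. The medians were -0.12 and -0.16. Relative to the median of all features, 5 loci were higher and 5 lower (15.1% and 12.1% of all features), and with TMM factors over the 1066 features the split was 5 and 4 (15.2% and 11.7%). With TMM factors over the whole table it was 5 and 9 (9.19% and 22.4%).

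LOC_Os01g57966 had 10.04 RPM (control) and 30.6 (salt) in CO12, and 24.2 (control) and 98.5 (salt) in Trichy 1. Salt was higher in both genotypes, 4.07-fold in Trichy 1 (3.15 to 5.30) and 3.04-fold in CO12 (2.09 to 4.43). Its equal-length set, in which it took an unequal part in Trichy 1 salt, was 2.66-fold higher in Trichy 1 (2.24 to 3.15). LOC_Os04g16820 (3473 bp) had 3.35, 8.19, 5.97 and 24.9 RPM in the order of libraries above, 4.17-fold higher under salt in Trichy 1 (2.48 to 7.31). The neighbouring LOC_Os04g16830 (5048 bp) had 3.03, 5.46, 6.57 and 17.5 RPM, 2.66-fold higher (1.55 to 4.67). Trichy 1 salt was the highest library for both, and for their unique reads, with 31 of 60 and 33 of 42 reads unique there.

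LOC_Os10g38229 (2253 bp) was the lowest in ratio, with 171 RPM (control) and 104 (salt) in CO12, and 490 (control) and 158 (salt) in Trichy 1. Trichy 1 control stood above the other libraries, and salt was 3.09-fold lower in Trichy 1 (2.77 to 3.47). Its set of 6 loci was 1.63-fold lower (1.54 to 1.73), so the ratio of the locus was larger than that of the summed reads. LOC_Os04g16866 was 2.93-fold lower (2.04 to 4.33), and LOC_Os01g58000 2.52-fold (1.47 to 4.52). LOC_Os04g16775 was 2.23-fold lower (2.01 to 2.47), and its set of 4 loci gave 2.23-fold (2.12 to 2.35). With LOC_Os04g16770, these are the 4 loci whose interval lay wholly beyond 2-fold on the lower side (2.16% of all features), and LOC_Os01g57966 and LOC_Os04g16820 are the 2 on the higher side (3.0% of all features).

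The third comparison asked how the genotypes differed without salt. Here 18 of the 48 loci reached 2-fold higher values in Trichy 1 than in CO12 and none was 2-fold lower, against 8.26% and 9.01% of all features. The medians were 0.83 for the loci and 0.10 for all features. Relative to that median, 14 loci were higher and 0 lower (6.47% and 11.2% of all features), and with factors over the whole table the split was 8 and 2 with TMM (2.63% and 18.8%) and 14 and 0 with median-of-ratios (5.16% and 12.9%). This comparison uses the CO12 control library, as does the salt comparison of CO12, so their results are not independent.

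All 6 loci of the chromosome 10 run with at least 20 reads were higher in Trichy 1 without salt, with log2 ratios from 0.92 to 1.70. Of all 1066 features, 584 had a log2 ratio above 0. The whole run had 383 RPM (control) and 399 (salt) in CO12, and 1052 (control) and 565 (salt) in Trichy 1. Trichy 1 control was thus the highest library, and the sums of the CO12 libraries differed little. Its single loci differed more in CO12. With salt, 3 of the 6 were at least 2-fold higher and 0 were 2-fold lower (13.3% and 18.2% of all features). LOC_Os10g38229 was 1.64-fold lower (1.41 to 1.93). LOC_Os10g38274 (246 bp), whose reads were unique in 69 of 249 cases in CO12 control and in 133 of 410 in Trichy 1 control, had 39.7, 80.3, 122 and 107 RPM. It was 3.09-fold higher in Trichy 1 without salt (2.63 to 3.63), and 3.57-fold with unique reads (2.65 to 4.84). LOC_Os10g38234 was 2.64-fold higher (2.40 to 2.91), and its 2205 bp set 2.01-fold (1.91 to 2.12).

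LOC_Os04g16740 was 3.15-fold higher in Trichy 1 without salt (2.86 to 3.46) and 3.22-fold with unique reads (2.61 to 3.99). LOC_Os01g58022 (739 bp) had 20.9, 54.1, 54.1 and 65.6 RPM, 2.59-fold higher (2.06 to 3.27), and CO12 control again lay below the other libraries. LOC_Os04g16764 (1094 bp) had 66.3, 33.3, 42.4 and 32.4 RPM, highest in CO12 control, and was 1.56-fold lower in Trichy 1 without salt (1.29 to 1.91). LOC_Os04g16804 (750 bp) had the lowest log2 ratio, -0.76, from 42 reads in CO12 control and 13 in Trichy 1 control, and LOC_Os04g16770 the third lowest, -0.42.

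In this comparison 10 loci had intervals wholly above 2-fold (1.78% of all features) and 0 wholly below (1.13%). LOC_Os01g57958 was the highest, at 7.87-fold (2.89 to 26.7), followed by LOC_Os04g16886, at 6.16-fold (2.56 to 17.0), both from 7 reads or fewer in CO12 control. Both reached 20 reads in Trichy 1 control but not in CO12 control, which favours a high ratio. The other 8 were LOC_Os01g57962, LOC_Os01g58022, LOC_Os04g16740, LOC_Os04g16748, LOC_Os10g38229, LOC_Os10g38234, LOC_Os10g38272 and LOC_Os10g38274. LOC_Os04g16712 had the third highest ratio, at 3.54-fold (1.49 to 9.01). In all, the lowest RPM of the 4 libraries was in CO12 control for 32 of the 48 loci and for 25.5% of all features. It was in CO12 salt for 9 loci (28.4%), in Trichy 1 salt for 6 (27.7%) and in Trichy 1 control for 1 (18.4%). The highest RPM was in Trichy 1 control for 17 loci (29.3%), in CO12 salt for 15 (22.0%), in Trichy 1 salt for 10 (22.8%) and in CO12 control for 6 (25.9%). CO12 control was also the deepest library, and the part of depth in this was not tested.

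Under salt the genotypes differed at few of the loci. Of the 48, 3 reached 2-fold higher and 4 reached 2-fold lower values in Trichy 1, against 10.5% and 9.1% of all features, and both medians were near 0 (-0.01 and 0.01). Relative to the median of all features, the split was again 3 and 4 (10.4% and 9.19%). The interval lay wholly beyond 2-fold for LOC_Os01g57966 alone on the higher side (0.657% of all features) and for 0 loci on the lower side (0.563%). The 3 higher loci were LOC_Os01g57966, at 3.22-fold (2.40 to 4.39), LOC_Os04g16820, at 3.04-fold (1.71 to 5.77), and LOC_Os04g16830, at 3.20-fold (1.58 to 7.14). Summed, the 1979 bp set of LOC_Os01g57966 was 1.725-fold higher (1.44 to 2.07). The 4 lower loci were LOC_Os01g58000, at 2.63-fold (1.45 to 4.92), and the 3 loci of the 471 bp set, LOC_Os04g16886 at 2.63-fold (1.30 to 5.57), LOC_Os04g16712 at 2.46-fold (1.30 to 4.84) and LOC_Os04g16856 at 2.09-fold (1.10 to 4.08). Summed, that set was 1.99-fold lower in Trichy 1 (1.53 to 2.61).

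The last comparison set the salt responses of the genotypes against each other. The log2 ratio of salt over control was lower in Trichy 1 than in CO12 by at least 1 for 19 of the 48 loci and higher by that much for none, against 15.5% and 15.6% of all features. The median difference was -0.81 for the loci and -0.07 for all features. Relative to the latter, 17 loci were lower and 0 higher (13.6% and 16.3% of all features). With factors over the whole table, TMM gave 7 lower and 7 higher, against 6.75% and 29.7% of all features, and median-of-ratios gave 10 lower and 3 higher, against 8.82% and 22.0%. The lowest differences were -3.85 for LOC_Os04g16886, -3.24 for LOC_Os01g57958 and -3.01 for LOC_Os04g16712, and the highest were 0.78 for LOC_Os04g16804, 0.78 for LOC_Os04g16820 and 0.77 for LOC_Os01g58010 (984 bp), each of these 3 with an interval that includes 0. Summed, the 750 bp set of LOC_Os04g16804, which includes features outside the runs, had a difference of 1.49 (0.742 to 2.24). It was the only one of the 13 sets with a difference above 0. The 471 bp set had -2.51 (-3.07 to -1.96). Both responses lay in the same direction, with both intervals excluding equality, for 11 loci (19.5% of all features), and in opposite directions for another 11 (3.75%).

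For 5 of these 11 loci, the opposite directions did not remain when the reads of equal-length loci were summed. LOC_Os04g16748 was 2.43-fold higher under salt in CO12 (1.79 to 3.28) and 2.09-fold lower in Trichy 1 (1.53 to 2.90), and LOC_Os10g38272 gave 2.77-fold and 2.10-fold. Their 1380 bp set was 2.55-fold higher in CO12 (2.25 to 2.89) and also higher in Trichy 1, 1.17-fold (1.05 to 1.29). LOC_Os01g57962 was 2.01-fold higher in CO12 (1.78 to 2.26), but its set had a ratio of 1.04 (0.966 to 1.13), which includes equality. LOC_Os01g57964 and LOC_Os04g16760 were 1.40-fold and 1.70-fold higher in CO12, and their set was 1.18-fold lower (1.10 to 1.27). The 478 bp set of LOC_Os04g16844 was 1.43-fold higher in CO12 (1.23 to 1.65) and 1.45-fold lower in Trichy 1 (1.24 to 1.70), so with library totals its opposite directions remained. Its CO12 log2 ratio was 0.51. Factors over the whole table moved the CO12 median of all features by -0.75 with TMM and by -0.52 with median-of-ratios. The opposite directions of this set thus depend on the scaling.

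The other 5 loci have no partner in a set. LOC_Os01g57960, LOC_Os01g58020 and LOC_Os04g16872 had log2 ratios of 0.28, 0.55 and 0.54 in CO12 and -0.08, -0.62 and -0.55 in Trichy 1. These CO12 ratios are smaller in size than the CO12 shift of -0.75 with TMM factors over the whole table. With unique reads, LOC_Os01g58020 was 1.33-fold higher in CO12 (1.02 to 1.73) and 1.41-fold lower in Trichy 1 (1.12 to 1.79), and LOC_Os01g57960 was 1.17-fold higher and 1.08-fold lower. LOC_Os04g16872 had a ratio of 1.02 in Trichy 1 with unique reads (0.643 to 1.60), an interval that includes equality. LOC_Os01g57968 had log2 ratios of -0.09 and 0.05 with total reads and -0.14 and -0.01 with unique reads. LOC_Os01g58000 (534 bp) had 8.93, 19.7, 18.8 and 7.48 RPM, and no unique reads.

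Over the unique reads of the table, 16 of the 89 loci had at least 20 in a library. In CO12, 5 of these were 2-fold higher under salt and 2 lower, against 9.12% and 21.8% of all 877 features with that many unique reads. In Trichy 1, 3 were higher and 1 lower (10.1% and 18.0%). Without salt, 4 of the 16 were at least 2-fold higher in Trichy 1 and 0 lower (5.47% and 9.58%), and under salt 3 were higher and 0 lower (10.4% and 9.24%). The response differed by at least 2-fold for 3 loci lower and 1 higher in Trichy 1 (12.2% and 16.5%). The median difference of response was 0.11 for the 16 loci and 0.01 for all 877 features. With total reads, the same 16 loci had a median difference of 0.04, against -0.81 for all 48.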

How the data were processed

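RNA of young leaves was depleted of ribosomal RNA, fragmented with RNase III and sequenced on an Ion Proton instrument, per the labels' protocols, with 1 library for each genotype and condition. The deposited tables give, per the file headers, a total and a unique gene read count, a length and an RPKM for each feature. RPKM as deposited by the authors equals total reads per kilobase and 1000000 total gene reads. For the reference, the aligner and the placing of reads with several matches, the sources used here give no name or rule, and molecular identifiers are not mentioned.

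The loci were taken by identifier number, and they and the lists were chosen with earlier results of these data known. Features with at least 20 total gene reads in at least 1 library were compared over the whole table, on reads per 1000000 total gene reads (RPM). Log2 ratios carry a prior of 0.5 reads scaled to depth, and calls are at 2-fold on these. Ratios printed as folds carry no prior and have exact conditional binomial (Clopper-Pearson) 95% intervals, scaled to the library totals, and shares have Wilson or, within sets, exact intervals. The difference of 2 log2 ratios was taken without a test. Named are the 3 dominating loci, the 10 others highest in mean RPM, the 3 highest and 3 lowest ratios of each comparison, loci wholly beyond 2-fold and equal-length sets. Python 3.11.15, numpy 2.4.6, pandas 2.3.3, scipy 1.17.1 and matplotlib 3.10.9 were used, with edgeR 4.0.16 in R 4.3.3 for TMM factors only. The calculations were tested on simulated data. Alternatives were unique reads, other floors, priors, thresholds and scalings, and sums over equal-length sets.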

Additional observations from a re-analysis of the deposited data

Results flagged for a closer look

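With total reads scaled to library totals, the salt library was above control in one genotype and below it in the other at 11 loci. Both counting intervals excluded equality. With 1 library for each genotype and condition, the difference between genotypes was not tested against replicates. The log2 ratio of salt over control in Trichy 1 minus that in CO12 was -2.53 for LOC_Os10g38272, -2.33 for LOC_Os04g16748, -1.56 for LOC_Os01g57962, -1.13 for LOC_Os04g16760 and -0.77 for LOC_Os01g57964. For these 5, the sum over the equal-length set did not have opposite directions with both intervals excluding equality. It was -1.31 for LOC_Os04g16844, whose set kept opposite directions with library totals. It was -2.44 for LOC_Os01g58000, -1.17 for LOC_Os01g58020, -1.09 for LOC_Os04g16872 and -0.36 for LOC_Os01g57960. For LOC_Os01g57968 it was 0.14, the only value above 0 among the 11. The directions of LOC_Os01g57960 and LOC_Os01g57968 depend on scaling to library totals. TMM factors over the whole table moved the median of all features by -0.75 in CO12 and by -0.18 in Trichy 1. The CO12 log2 ratios of LOC_Os01g57964 (0.49), LOC_Os04g16872 (0.54), LOC_Os01g58020 (0.55) and LOC_Os04g16844 (0.67) are smaller in size than that CO12 shift. That of LOC_Os04g16760 (0.76) is about its size. The directions of these loci thus depend on scaling too. With unique reads, LOC_Os01g57968 was lower under salt in both genotypes.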

How the results depend on the processing

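Numbers of loci at least 2-fold apart are given for salt in CO12, salt in Trichy 1, genotype without salt, genotype under salt and the difference of the salt responses, in that order; the values reported above were 22, 13, 18, 7 and 19. Over all 1066 features with at least 20 reads, 31.5%, 29.4%, 17.3%, 19.6% and 31.1% were that far apart. With unique reads the numbers were 7, 4, 4, 3 and 4 of 16 loci, against 30.9%, 28.2%, 15.1%, 19.6% and 28.7% of all features. With no floor they were 41, 31, 32, 21 and 37 of 80, against 65.5%, 49.4%, 58.0%, 45.4% and 76.5%; of these, 33, 20, 25, 14 and 11 were higher (21.8%, 23.5%, 20.4%, 24.9% and 45.6% of all). With a floor of 100 reads they were 11, 8, 11, 1 and 11 of 31, against 23.2%, 19.6%, 12.5%, 7.34% and 21.4%; of these, 9, 2, 11, 1 and 0 were higher (8.87%, 4.89%, 8.56%, 3.98% and 8.56%). At 4-fold they were 6, 2, 2, 0 and 6 of 48, against 8.44%, 5.35%, 1.501%, 3.28% and 8.82%; all were higher except the 6 of the last comparison, which were lower (3.94% of all). With TMM factors over all features, genotype without salt gave 10 of 48, 8 higher and 2 lower (2.63% and 18.8% of all features). With equal-length sets summed, genotype under salt gave 3. That number counts sums that include features outside the runs and has no share over all features, so it cannot be set beside the others. Library totals were also taken without the 3 dominating loci. The higher and lower loci were then 18 and 4, 5 and 8, 14 and 0, 3 and 4, and 0 and 16. Of all features, 11.5% and 21.1%, 11.6% and 18.2%, 6.38% and 11.4%, 9.85% and 9.29%, and 16.5% and 13.3% were. Without the 3 dominating loci, the share of a library in the runs was 0.728%, 0.908%, 0.923% and 0.808% (control and salt in CO12, then in Trichy 1). The unique share of the reads of the other loci was 74.8%, 72.4%, 61.1% and 67.2%. With unique reads only, the runs held 34.8%, 31.4%, 30.6% and 30.01% of a library. The cause of these shifts was not tested. No paired analysis was possible because each group has 1 library and the labels give no replicate numbers, and no library could be left out for the same reason. Depth limits the loci near 20 reads most.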
